A study of Mus musculus with 4 samples.

Results

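The genes described here encode 8 subunits of the inhibitory chloride channels of the brain, Gabra2, Gabra3, Gabra4, Gabra5, Gabrd, Gabre and Gabrq of the GABA-A receptor and Glra1 of the glycine receptor. They were taken from a list of mouse symbols matched by Entrez ID, drawn up by gene family but with earlier results of these data known, and all 8 were found among the 12700 genes of the count table. Messenger RNA was profiled by SOLiD sequencing of brain tissue from Ids-ko mice, which model Hunter syndrome, a lysosomal storage disorder caused by loss of iduronate 2-sulfatase. All mice were of the strain C57BL/6 and 9 months old, and the controls were wild-type littermates. CxH is the label for cerebral cortex of Ids-/- mice, CxWT for cerebral cortex of wild-type mice, MH for midbrain/diencephalon/hippocampus of Ids-/- mice and MWT for the same areas of wild-type mice. Each label stands for 1 library made from the pooled RNA of several mice, so there were no replicates, and each brain was divided into both areas, so Cx and M libraries may share mice. Every test here compares a pair of libraries by their reads without reaching the conditions behind them. The study's methods place the striatum with the midbrain/diencephalon/hippocampus tissue, and which part of Ids is disrupted is not given in the sources used here.

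GABA-A receptors are rings of 5 subunits around a chloride channel that opens when GABA binds. Most synaptic receptors combine alpha and beta subunits with a gamma subunit, whereas receptors with delta usually pair it with alpha4 or alpha6 and lie outside synapses, where they carry a tonic current. Epsilon and theta are found mainly in hypothalamic and monoamine cell groups, and their genes flank Gabra3 on the X chromosome. Glycine receptors with the alpha1 subunit are the main inhibitory receptors of the adult spinal cord and brainstem.

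The libraries held between 16380080 (MWT) and 23475080 (CxH) reads on genes, and counts are given here as RPM, the reads of a gene scaled to 1000000 aligned reads of its library. Ids, the disrupted gene, had 135 RPM in the library labelled CxH and 354 RPM in CxWT, then 368 RPM in the library labelled MH and 155 RPM in that labelled MWT. Thus Ids was lower in CxH than in CxWT but higher in the library labelled MH than in that labelled MWT, against the labels of the M pair. Cortical excitatory neuron markers, with all 15 genes of the list counted, summed to 2019 and 1859 RPM in CxH and MH, and to 366 and 301 RPM in CxWT and MWT. Midbrain and diencephalon markers, with 13 of 18 genes counted, summed to 29.8 and 40.8 RPM in the first of these pairs and to 472 and 418 RPM in the second. En1, Hcrt and Slc6a4 of that list were at 3 reads or fewer in both CxH and MH, and Calcr was as well in CxH. Of the cortical list, Cux1, Rorb and Nrn1 had log2 ratios of 0.19, 0.027 and 0.57 in CxH over CxWT and -0.13, 0.16 and 0.54 in MH over MWT. The other 12 were called higher in both pairs by the rule given below, and Slc17a7 had the most reads, 52335 in CxH and 5120 in CxWT. The area markers therefore separated the libraries labelled H from those labelled WT and not Cx from M, so each library keeps its deposited label below, all 6 pairs are given, and no direction is ascribed to genotype or area. Read together, the markers and Ids go with the deposited label in CxH only, and an exchange of MH and CxWT by itself would leave Ids against the labels. If both were the guide, the labels of MH, CxWT and MWT would all have to move, so that CxH over MH and CxWT over MWT would be the pairs that differ in Ids within an area, and the pairs called Cx and M here would differ in both. Whether labels were exchanged among the libraries was not tested. If the cortical and the midbrain and diencephalon markers gave the areas, each ratio of an H over a WT library would compare areas. In the Cx and M pairs a difference in Ids would come with it, and genotype and area cannot be told apart there. In CxH over MWT and MH over CxWT the log2 ratios of Ids were -0.20 and 0.058. Markers of striatum (7 of 8 genes) summed to 722, 567, 247 and 232 RPM (given as CxH, MH, CxWT, MWT), of cortical interneurons (6 of 6) to 257, 225, 158 and 151, of hippocampus (4 of 6) to 121, 120.3, 100.2 and 75.7, and of cerebellum (5 of 7) to 36.4, 36.8, 126 and 107. Of the cerebellar list, Cbln1, Zic1, Zic2 and En2 were lower in both CxH over CxWT and MH over MWT, and En2 is also on the midbrain and diencephalon list. Pcp2 had log2 ratios of -0.25 and 1.05 in these pairs, at 15 to 40 reads. Hippocampus by label and striatum by the study's methods belong to the M tissue. Both sums were higher in CxH and MH, where the midbrain and diencephalon sum was low. None of the 6 hindbrain and spinal cord markers was analysed here. Oligodendrocyte markers (4 of 4) were lower in CxH and MH, at 4177 and 4357 RPM, than in CxWT and MWT, at 8030 and 6340. Sums over the other glia and blood did not separate the labels H and WT. In the order CxH, MH, CxWT and MWT, they were 543, 304, 263 and 408 RPM for microglia (8 of 8). They were 1251, 929, 904 and 1328 for astrocytes (4 of 4) and 125, 186, 254 and 77.1 for blood (2 of 3). The microglial and astrocyte sums were thus higher in CxH and MWT, the libraries with less Ids. Csf1r and Cx3cr1 of the microglial list and Aqp4, Aldh1l1 and Slc1a3 of the astrocyte list did not follow this split.

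**Figure D1:**
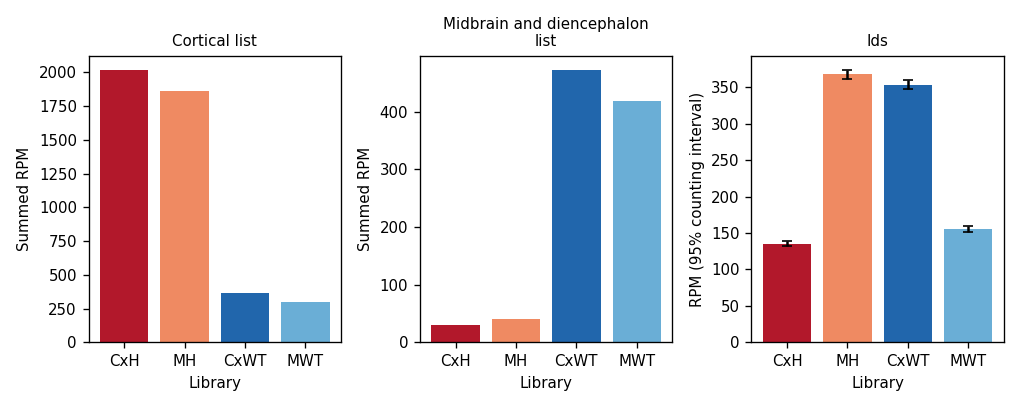
Marker levels and Ids in the 4 libraries, with summed RPM of the cortical list (15 genes, left) and of the midbrain and diencephalon list (13 genes, middle), and RPM of Ids with its 95% exact interval (right). The marker sums were alike in CxH and MH and in CxWT and MWT, whereas Ids was low in CxH and MWT at 135 and 155 RPM.

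Of the 8 subunit genes, Gabrd was called higher and Gabre, Gabrq and Glra1 were called lower in CxH than in CxWT. The same 4 genes were called in the same directions in MH against MWT. Genes were called by the study's rule, a log2 ratio of 0.7 or more in either direction together with a likelihood ratio test of the read counts at the 0.05 level. Across all genes this rule called 20.9% in Cx (CxH over CxWT), with 9.46% higher and 11.5% lower, and 25.0% in M (MH over MWT), with 12.3% higher and 12.7% lower. The balance of directions over all genes turned with the scaling, from 1201 higher and 1457 lower in Cx to 1447 and 1135 with TMM factors, and from 1556 and 1614 in M to 1774 and 1386. Calls in the same direction in both pairs made up 12.7% of all genes, 6.23% higher and 6.46% lower, where they were 4 of the 8. The 4 alpha genes of the group were called in neither pair. The median log2 ratio of the 8 genes was -0.47 in Cx, where that of all genes was -0.093, and -0.34 in M, where that of all genes was -0.066. Each ± is a standard error from counting, and standard errors and intervals cover counting error only.

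**Figure D2:**
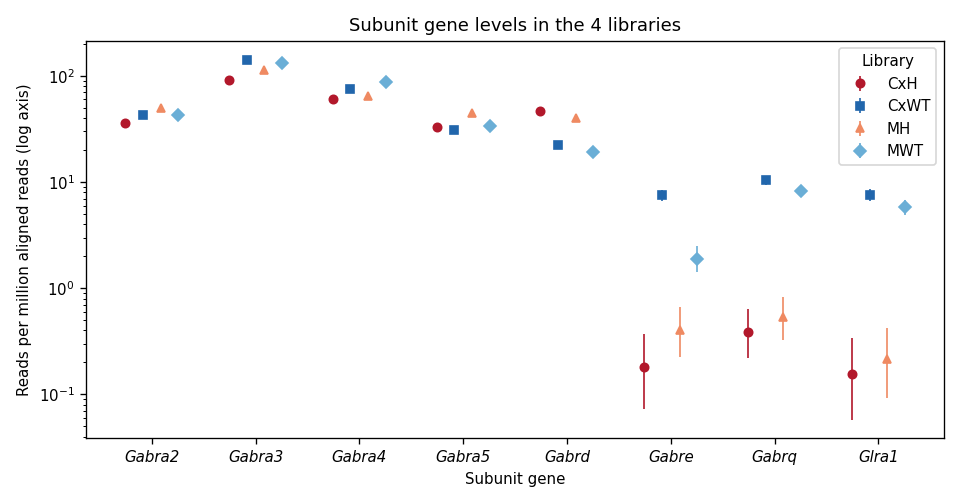
Level of each subunit gene in each of the 4 libraries in RPM on a log axis, with 95% exact Clopper-Pearson intervals (bars, hidden where smaller than the symbol). The alpha genes spread by at most 1.54-fold over the libraries, whereas Gabre, Gabrq and Glra1 were below 1 RPM in CxH and MH and between 1.90 and 10.4 RPM in CxWT and MWT.

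Gabre and Gabrq, encoding the epsilon and theta subunits, lie on the X chromosome on either side of Gabra3. On the NCBI37/mm9 build, with GENCODE vM1 positions, Gabre spans chrX:69501338-69520142 on the minus strand, Gabra3 chrX:69678020-69902187 on the minus strand and Gabrq chrX:70070517-70087941 on the plus strand. The gap is 157.9 kb between Gabre and Gabra3 and 168.3 kb between Gabra3 and Gabrq, and Ids lies 1883 kb from Gabre at chrX:67596244-67618260. The promoter windows of the 3 neighbours, from 250 bases before to 50 bases after the start site, are shown because the outer genes were called lower in both pairs and the gene between them in neither. They are RefSeq sequences of GRCm38.p6, a later build than that of the counts, at chrX:72274672-72274971 (minus strand), chrX:72656870-72657169 (minus strand, the first of 2 entries) and chrX:72824928-72825227 (plus strand), written 5′ to 3′ with motif matches in capitals.
Gabre: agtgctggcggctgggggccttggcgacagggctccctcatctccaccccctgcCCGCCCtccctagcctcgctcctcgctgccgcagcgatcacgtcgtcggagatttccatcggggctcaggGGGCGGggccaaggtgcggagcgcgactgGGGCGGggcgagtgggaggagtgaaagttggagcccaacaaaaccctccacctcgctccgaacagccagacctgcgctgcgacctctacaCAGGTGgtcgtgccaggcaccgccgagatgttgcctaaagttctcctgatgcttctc
Gabra3: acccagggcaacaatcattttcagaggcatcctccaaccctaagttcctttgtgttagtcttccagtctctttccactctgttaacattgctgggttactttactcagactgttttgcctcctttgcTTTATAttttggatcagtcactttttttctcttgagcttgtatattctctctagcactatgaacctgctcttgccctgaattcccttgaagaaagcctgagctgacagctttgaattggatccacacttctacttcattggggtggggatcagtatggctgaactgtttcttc
Gabrq: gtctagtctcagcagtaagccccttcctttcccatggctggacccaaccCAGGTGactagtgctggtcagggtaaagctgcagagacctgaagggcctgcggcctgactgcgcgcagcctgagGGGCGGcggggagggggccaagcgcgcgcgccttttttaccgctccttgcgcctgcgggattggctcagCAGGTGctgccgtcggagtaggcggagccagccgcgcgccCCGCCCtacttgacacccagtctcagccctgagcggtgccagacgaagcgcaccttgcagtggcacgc
Motifs were searched on both strands, and no matches overlapped in these windows. The GC box, searched as GGGCGG, numbered 3 in the Gabre window, 0 in that of Gabra3 and 2 in that of Gabrq, and 35.7% of the 32851 mouse promoter windows held at least 1. The E-box, searched as CANNTG and held by 72.3% of windows, numbered 1, 0 and 2. A TATA box, searched as TATAAA and held by 13.6% of windows, was found once, on the other strand of the Gabra3 window. No cyclic AMP response element, searched as TGACGTCA, was found in the 3 windows, against 1.79% of all windows that held one. The GC content was 66.7% for Gabre, 43.0% for Gabra3 and 67.0% for Gabrq, with 24, 0 and 23 CpG dinucleotides, where the median of all windows was 52.7% and 7. GC-rich windows were not particular to the outer genes, since those of Gabra2, with 70.0% GC, 25 CpG dinucleotides and 2 GC boxes, and Gabra4, with 58.7%, 12 and 2, belong to genes called in neither pair. The Gabra5 window had 56.7% GC, 13 CpG dinucleotides and no GC box. These matches describe the letters of the windows and no binding was measured. Of the 8 genes, 6 were matched to a RefSeq window, all but Gabrd and Glra1.

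Gabre had 7 reads in the library labelled CxH (0.182 RPM), 252 in CxWT (7.50 RPM), 15 in MH (0.401 RPM) and 55 in MWT (1.90 RPM). Both libraries labelled H were below both labelled WT, and the 95% intervals of CxH and MH overlapped. In Cx the gene was 41.2-fold lower (95% interval 19.7 to 104), a log2 ratio of -5.37 ± 0.55, and in M it was 4.73-fold lower (2.64 to 9.02), at -2.24 ± 0.42. The Cx ratio was lower than the M ratio by a log2 difference of -3.12 ± 0.69. This difference combines a gap of -1.14 ± 0.66 between CxH and MH with the gap between CxWT and MWT. Gabre was the only one of the 8 genes called in CxWT over MWT, at 1.98 ± 0.21 where 7.54% of all genes were called. The microRNA genes Mir224 and Mir452 are annotated within Gabre, and the strand used in counting is not stated, so their reads cannot be told apart.

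Gabrq had 15 reads in CxH (0.390 RPM), 348 in CxWT (10.4 RPM), 20 in MH (0.535 RPM) and 241 in MWT (8.33 RPM). Its levels thus formed a low pair, CxH and MH, and a high pair, CxWT and MWT, and within each pair the 95% intervals overlapped. The gene was 26.6-fold lower (15.9 to 48.0) in Cx, at a log2 ratio of -4.73 ± 0.38, and 15.6-fold lower (9.85 to 25.9) in M, at -3.96 ± 0.34. Between CxWT and MWT the log2 ratio was 0.31 ± 0.12 and between CxH and MH it was -0.46 ± 0.49, neither of them called. Scaled to transcript length (RPKM, RPM per 1000 bases of the longest protein-coding transcript), Gabrq stood at 1.20 ± 0.100 times the level of Gabre in CxWT and 3.82 ± 0.57 times in MWT.

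Gabra3, the gene between them, encodes an alpha subunit common in the cortex and in monoamine cell groups. It had 3522 reads in CxH (91.5 RPM), 4744 in CxWT (141 RPM), 4225 in MH (113 RPM) and 3858 in MWT (133 RPM). Both H libraries were below both WT libraries here too, but by a small margin, with a log2 ratio of -0.63 ± 0.032 in Cx and -0.24 ± 0.032 in M. Neither ratio reached 0.7, and a correction of the ratios for GC content and transcript length brought the Cx ratio to -0.31 and turned the M ratio to 0.065. In RPKM, Gabrq was 0.0543 ± 0.0030 of Gabra3 in CxWT and 0.0463 ± 0.0031 in MWT, against 0.0032 ± 0.00082 in CxH and 0.0035 ± 0.00079 in MH. The predicted genes Gm14734 and Gm14735, Mir105, Mir767 and a U6 gene are annotated within Gabra3 and share the limit on strand.

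**Figure D3:**
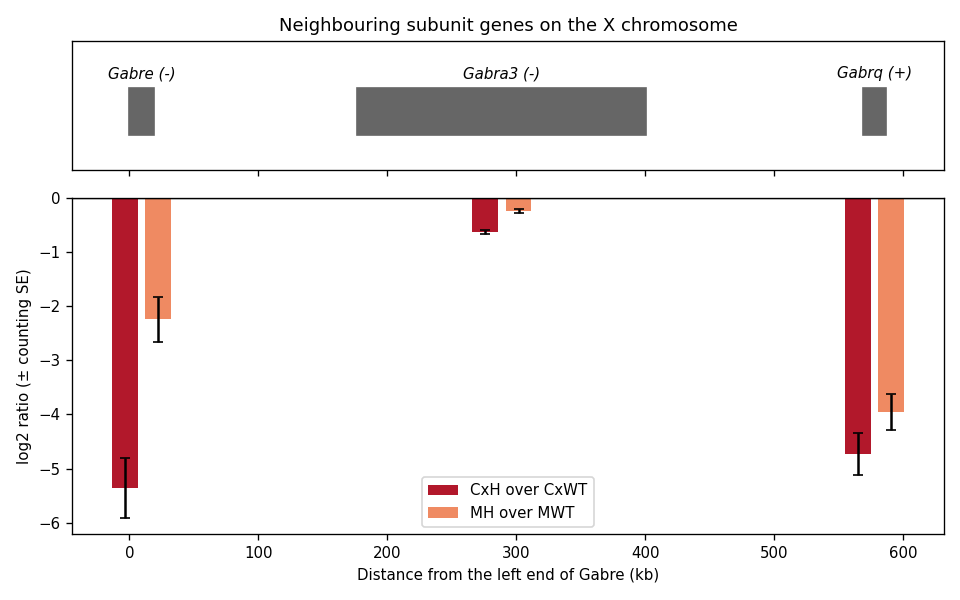
Positions of Gabre, Gabra3 and Gabrq on the X chromosome in kb from the left end of Gabre (top) and the log2 ratio of each gene in Cx and M with its counting standard error (bottom, bars from 0). The ratios of the outer genes lay between -5.37 and -2.24, and those of Gabra3 at -0.63 and -0.24. Under the correction for GC content and length the ratios of Gabra3 were -0.31 and 0.065.

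Glra1, the alpha1 subunit of the glycine receptor, lies on chromosome 11 from 55327740 to 55421700 on the minus strand. It had 6 reads in CxH (0.156 RPM), 254 in CxWT (7.56 RPM), 8 in MH (0.214 RPM) and 167 in MWT (5.77 RPM). The levels again formed a low pair labelled H and a high pair labelled WT, with overlapping 95% intervals within each pair. Glra1 was 48.5-fold lower (22.0 to 133) in Cx, at -5.60 ± 0.60, and 26.9-fold lower (13.4 to 63.4) in M, at -4.75 ± 0.52. Counted from the lowest ratio, it ranked 14th of 11939 genes in Cx and 12th of 11800 in M, again among genes that reached 100 reads, where Gabrq ranked 21st and 22nd and Gabre 17th in Cx. These 3 genes reached 100 reads only through the WT libraries, so the filter took them in through the libraries where they were high, and the ranks are a description only. The low libraries still lay above the floor of 3 reads, which corresponds to 0.0779 RPM in CxH and 0.0803 in MH. The predicted genes Gm12236 and Gm12237 overlap it.

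Other glycine receptor genes give the frame for Glra1. Glra2 and Glra3, which encode alpha subunits, were called lower in both pairs, Glra2 at -2.13 ± 0.11 in Cx and -1.48 ± 0.097 in M and Glra3 at -2.38 ± 0.22 and -1.86 ± 0.22. Glrb, the beta subunit that anchors the receptor to gephyrin, was called in neither, at -0.57 ± 0.028 and -0.42 ± 0.027. In RPKM, Glra1 was 0.410 ± 0.029 of Glra2 in CxWT and 0.314 ± 0.027 in MWT, and 0.037 ± 0.015 in CxH and 0.033 ± 0.012 in MH, so the ratio of the 2 alpha genes also separated the labels H and WT.

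Markers of monoamine and peptide neurons moved with these 3 genes. With 9 of 10 genes counted, they summed to 12.8 and 14.6 RPM in CxH and MH and to 210 and 170 RPM in CxWT and MWT, and Hcrt and Slc6a4 were at 3 reads or fewer in CxH and MH, with Avp and Oxt as well in CxH. Their part in the ratios of Gabre, Gabrq and Glra1 was not tested. In bulk tissue, fewer cells of a type and less RNA per cell cannot be told apart.

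The genes whose levels over the 4 libraries lay nearest to these 3, by Euclidean distance between centred log2 RPM among 11987 genes that reached 100 reads in any library, were looked up for each gene. For Glra1 they were Tph2, which encodes the enzyme of serotonin synthesis in neurons, at a distance of 0.51, Lhx5 at 0.58 and Chrna6, a nicotinic receptor subunit of dopamine neurons, at 0.61. For Gabrq they were Arhgap36 at 0.27, the transcription factor Nhlh2 at 0.34 and Dgkk, a diacylglycerol kinase, at 0.35. Gabre had no near match, since its closest profiles, the transcription factors Shox2, Lhx9 and Irx1, lay at 0.85, 1.15 and 1.24. Only 4 libraries enter each distance, and Tph2 and Lhx9 are also on the marker lists given above. Counting standard errors of the Cx and M log2 ratios were 0.60 and 0.52 for Glra1 and 0.38 and 0.34 for Gabrq. These are of the size of their distances, so the choice and order of their neighbours may reflect counting error.

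Gabrd, the delta subunit of extrasynaptic receptors, was the 1 gene of the group with both libraries labelled H above both labelled WT, before any correction. It lies on chromosome 4 from 154759089 to 154772221 on the minus strand, and it had 1808 reads in CxH (47.0 RPM), 750 in CxWT (22.3 RPM), 1506 in MH (40.3 RPM) and 557 in MWT (19.2 RPM). The H and WT libraries did not overlap. The log2 ratio of 1.07 ± 0.063 in Cx was matched by 1.07 ± 0.072 in M, with 95% intervals of 1.93 to 2.29-fold and 1.90 to 2.31-fold and a difference of 0.0070 ± 0.095 between them. The GC content of its transcript, 56.8%, was the highest of the 8 genes, and across 10724 genes the log2 ratio rose with GC content with a Spearman rho of 0.460 in Cx and 0.486 in M, a description over genes that share the same libraries. After correction for GC content and length, Gabrd stood at 0.87 in Cx and 0.82 in M, still past 0.7 in both.

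Delta was also set against its partner. Relative to Gabra4, the usual alpha partner of delta in the forebrain, Gabrd stood in RPKM at 1.65 ± 0.051 in CxH and 1.35 ± 0.044 in MH, against 0.632 ± 0.026 in CxWT and 0.473 ± 0.022 in MWT. The ratio was thus above 1 in both H libraries and below 1 in both WT libraries, without correction for the GC content of the transcripts, which was 56.8% for Gabrd and 42.2% for Gabra4. The nearest profiles to Gabrd were Mras (distance 0.034), Faah (0.054), which encodes the enzyme that degrades the endocannabinoid anandamide, and Stum (0.056). Cortical, striatal, hippocampal and interneuron markers also had higher sums in CxH and MH, as given above, although Pvalb of the interneuron list was at -0.37 in Cx and -1.19 in M and Prox1 of the hippocampal list at -1.07 and -0.14, and their part in the level of Gabrd was not tested.

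**Figure D4:**
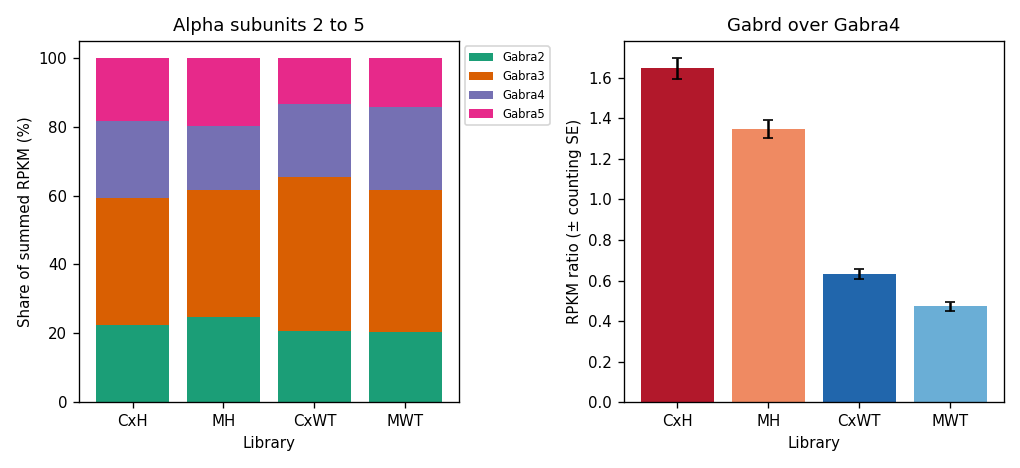
Share of each gene in the summed RPKM of Gabra2 to Gabra5 (left, stacked bars) and RPKM ratio of Gabrd to Gabra4 with its counting standard error (right) in the 4 libraries. The share of Gabra5 was 18.5% and 19.9% in CxH and MH and 13.5% and 14.4% in CxWT and MWT, and the delta to alpha4 ratio was 1.65 and 1.35 against 0.632 and 0.473.

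Gabra2, Gabra4 and Gabra5 encode further alpha subunits, which carry the GABA site together with beta. Gabra2 (chromosome 5, 71352296 to 71487088, minus strand), abundant in forebrain synapses, had 1380 reads in CxH (35.8 RPM), 1428 in CxWT (42.5 RPM), 1862 in MH (49.8 RPM) and 1250 in MWT (43.2 RPM). It was highest in MH and lowest in CxH, and CxWT and MWT did not differ beyond their intervals. In Cx its log2 ratio stood at -0.25 ± 0.054 and in M at 0.21 ± 0.053. Under the correction for GC content and length the Cx value turned to 0.14 and the M value rose to 0.67. None of these ratios reached 0.7.

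Gabra4 (chromosome 5, 71960973 to 72049547, minus strand), the partner of delta, had 2356 reads in CxH (61.2 RPM), 2545 in CxWT (75.7 RPM), 2398 in MH (64.2 RPM) and 2529 in MWT (87.4 RPM). Both H libraries lay below both WT libraries, and CxH and MH overlapped. The log2 ratio was -0.31 ± 0.041 in Cx, turning to 0.045 under the GC and length correction, and -0.45 ± 0.041 in M, where it was -0.14 after correction. Gabra4 was called in no pair.

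Gabra5 (chromosome 7, 64663060 to 64765379, minus strand), best known from extrasynaptic receptors of the hippocampus, had 1269 reads in CxH (33.0 RPM), 1035 in CxWT (30.8 RPM), 1660 in MH (44.4 RPM) and 976 in MWT (33.7 RPM). MH stood above the other libraries, where the intervals of MWT and CxH and of CxH and CxWT overlapped. Its ratio on the log2 scale was 0.098 ± 0.060 in Cx and 0.40 ± 0.058 in M, and 0.23 and 0.61 after correction, all below 0.7. The predicted gene Gm9962 overlaps it.

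Among the 4 alpha genes of the group, Gabra3 took the largest share of the summed RPKM in every library, with 37.2% ± 0.52 in CxH and 36.7% ± 0.47 in MH and 44.7% ± 0.51 in CxWT and 41.2% ± 0.53 in MWT. Gabra2 took 22.3% ± 0.51 in CxH and 24.8% ± 0.48 in MH, against 20.6% ± 0.47 in CxWT and 20.4% ± 0.50 in MWT. The share of Gabra5 was 18.5% ± 0.46 and 19.9% ± 0.43 in CxH and MH and 13.5% ± 0.38 and 14.4% ± 0.42 in CxWT and MWT. Gabra4 ranged from 18.5% to 24.0% without following the labels H and WT. Shares of Gabra2 and Gabra5 were therefore higher, and that of Gabra3 lower, in both H libraries. They were not corrected for GC content, which was 41.7% in the transcript of Gabra2, 43.1% in that of Gabra3 and 47.3% in that of Gabra5.

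The nearest profiles to the alpha genes were close ones among many genes of small spread. They were Ankhd1, Rbmxl1 and Ankrd12 for Gabra2 (each at 0.020), Katna1, Macf1 and Lrch3 for Gabra3 (0.024 to 0.040), Rbm4b, Sgce and Pigg for Gabra4 (0.013 to 0.025), and P2ry14, Ivns1abp and Kdm7a for Gabra5 (0.0066 to 0.062).

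Chromosome 5 holds Gabrg1, Gabra2, Gabra4 and Gabrb1 in a row, and the members of this cluster did not share a ratio. Gabrg1, 118.4 kb from Gabra2, was called lower in both pairs, at -1.50 ± 0.065 in Cx and -1.42 ± 0.062 in M, and at -0.81 and -0.97 after correction for GC content and length. Gabrb1, 41.6 kb from Gabra4, had -0.16 ± 0.095 and -0.071 ± 0.099. On chromosome 7, Gabrg3 lies 20.5 kb from Gabra5 and had -0.33 ± 0.15 in Cx and 0.50 ± 0.18 in M, and neither of them was called.

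The 4 remaining pairs of libraries set these values in context. Between CxH and MH, where 3.50% of all genes were called, none of the 8 genes was called, and the test alone, without the ratio, passed for Gabra2, Gabra3, Gabra5 and Gabrd, as for 59.1% of all genes. The log2 ratios of CxH over MH were -0.48 ± 0.051 for Gabra2, -0.31 ± 0.033 for Gabra3, -0.43 ± 0.054 for Gabra5 and 0.22 ± 0.050 for Gabrd. For Gabre, Gabrq and Glra1 they were -1.14 ± 0.66, -0.46 ± 0.49 and -0.46 ± 0.78, differences that were not detectable at counts of 6 to 20 reads. The crossed pairs, CxH over MWT with 30.7% of all genes called and MH over CxWT with 15.3%, each called the same 4 genes in the same directions as the Cx and M pairs. These pairs reuse the same 4 libraries and add no new samples. In CxH over MWT the log2 ratios were 1.29 ± 0.070 for Gabrd, -3.39 ± 0.58 for Gabre, -4.42 ± 0.38 for Gabrq and -5.21 ± 0.60 for Glra1. In MH over CxWT they were 0.85 ± 0.064, -4.22 ± 0.38, -4.27 ± 0.33 and -5.14 ± 0.52 in the same order of genes. The log2 ratio of Ids was -1.44 ± 0.023 in CxH over MH and 1.19 ± 0.025 in CxWT over MWT, both called, and -0.20 ± 0.029 and 0.058 ± 0.018 in the crossed pairs, neither called.

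**Figure D5:**
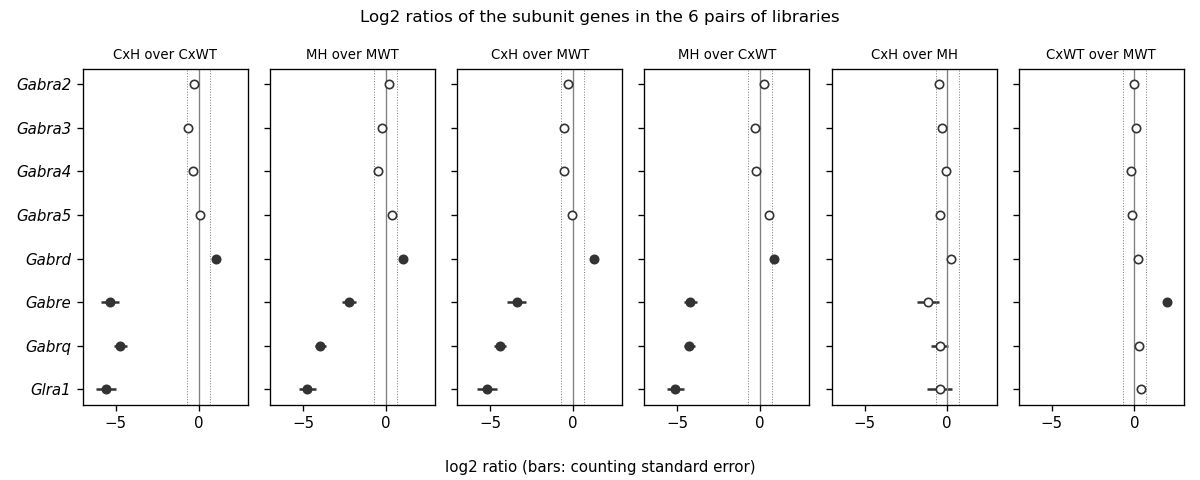
Log2 ratio of each subunit gene in the 6 pairs of libraries with its counting standard error, where filled symbols mark called genes and dotted lines the threshold of 0.7 in either direction. The same 4 genes were called in each pair of an H with a WT library, none in CxH over MH and only Gabre, at 1.98, in CxWT over MWT; the small ratios of the alpha genes changed sign in several pairs under the correction for GC content and length.

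By labels, the levels in both H libraries lay below those in both WT libraries for Gabra3, Gabra4, Gabre, Gabrq and Glra1 and above them for Gabrd. These are 6 of 8 genes, where 61.2% of all genes separated in one direction or the other (36.9% below, 24.3% above), so the share of the group was near that of all genes. Under the GC and length correction Gabra3 (0.065 in MH over MWT) and Gabra4 (0.045 in CxH over CxWT, 0.032 in CxH over MWT) no longer separated in this way. Gabra2 was then at 0.14 in CxH over CxWT and 0.67 in MH over MWT, and Gabra5 at 0.23 and 0.61. Both were above 0 in the crossed pairs as well, so by the corrected ratios they came to lie higher in H. The share of all genes that separated under the correction is not given here. Both Cx libraries lay below both M libraries for Gabra2 and Gabra5, against 6.17% of all genes, and above them for none, against 13.5%, or 19.7% in either direction. Neither gene kept this split under the GC and length correction, where Gabra2 turned to 0.28 and Gabra5 to 0.015 in CxWT over MWT, and Gabra5 also turned in CxH over MWT with TMM (0.012) or DESeq2 factors (0.0054). The intervals of Gabra2 in CxWT and MWT overlapped already without it.

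Of 13 other subunit genes of the 2 receptor families, 7 were analysed. In Cx, 3 were called lower (Gabrg1, Glra2 and Glra3) and none higher, with a median log2 ratio of -0.68, and in M 4 were called lower (Gabrb2, Gabrg1, Glra2 and Glra3) and none higher, with a median of -0.85, where 11.5% and 12.7% of all genes were called lower. Gabrb2, which encodes the beta2 subunit, was at -0.68 ± 0.025 in Cx and -0.85 ± 0.024 in M. After correction for GC content and length Gabrb2 (-0.63 in M) no longer passed, and Gabrg1, Glra2 and Glra3 remained called lower in both pairs. The median of the list was then -0.24 in Cx and -0.63 in M. None of the 7 was called in CxH over MH or CxWT over MWT, 4 were called lower in CxH over MWT and 3 in MH over CxWT, where 15.1% and 8.89% of all genes were.

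Genes that anchor and move the receptors, 17 of 18 analysed, had 1 call in Cx and 2 in M, where 20.9% and 25.0% of all genes were called, with Plcl2 higher in Cx (0.92 ± 0.054) and, in M, Shisa7 higher (1.01 ± 0.035) and Plcl1 lower (-1.03 ± 0.067). Shisa7 is an auxiliary protein of GABA-A receptors, and Plcl1 and Plcl2 encode phospholipase C-related proteins that bind them. The median of this list was 0.064 in Cx and 0.15 in M, the latter turning to -0.11 under the correction for GC content and length, where Shisa7 was no longer called. With TMM or DESeq2 factors 4 of these genes were called higher in Cx, which were Plcl2, Shisa7, Trak1 and Dnm1. With column totals Plcl1 was called lower in Cx and Gabarap in M as well, and at a log2 threshold of 1 none was called in Cx.

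Genes of transmitter and chloride handling, 11 of 12 analysed, had 5 called lower and 1 higher in Cx and 7 lower and none higher in M, with medians of -0.56 and -0.74, where 11.5% and 12.7% of all genes were called lower. At a log2 threshold of 1 the calls fell to 3 lower in each pair, Gad2 and Slc6a11 in both, Slc6a9 in Cx and Abat in M. Gad2, which makes GABA, was at -1.22 ± 0.026 and -1.26 ± 0.026, Slc6a11, a GABA transporter of astrocytes, at -1.70 ± 0.024 and -1.92 ± 0.028, and Abat, which degrades GABA, at -0.86 ± 0.017 and -1.05 ± 0.018. Slc6a9, a glycine transporter, was at -1.46 ± 0.038 and -0.86 ± 0.046, and Slc12a2, a chloride importer, at -0.85 ± 0.043 and -0.86 ± 0.043. Slc6a13 was called higher in Cx at 0.75 ± 0.11, and Gad1 (-0.71 ± 0.019) and Aldh5a1 (-0.74 ± 0.036) were called lower in M. Gad2, Slc6a9, Slc6a11 and Abat were called lower in both pairs, at the threshold of 0.7, under each other scaling and under the GC and length correction, whereas Aldh5a1 and Gad1 were lost with TMM or DESeq2 factors. The correction also lost Slc6a13 (0.61) and Slc12a2 (-0.60) in Cx and Gad1 (-0.61) in M, and it brought in Slc32a1, the vesicular transporter of GABA and glycine, at -0.78 in Cx and -1.14 in M after correction against -0.43 and -0.42 before it. Of the 5 genes of the GABA-B receptor and its Kctd partners, Kctd16 was called higher (1.02 ± 0.12 in Cx, 1.76 ± 0.16 in M) and Kctd8 lower (-1.23 ± 0.11 and -0.91 ± 0.13), and neither receptor gene was called. At a log2 threshold of 1 Kctd8 was no longer called in M.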

How the data were processed

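Messenger RNA of pooled mouse brain tissue was sequenced on a SOLiD 3 Plus System, with 1 library for each of the 4 labels. The authors aligned the reads to NCBI37/mm9 with PASS software and counted reads aligned to a single gene, keeping genes covered over most of their length, with a script of their own. They deposited these values as raw counts per Entrez gene, without normalization, and the gene annotation and use of strand are not given in the sources used here.

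Here counts were divided by the aligned reads that the study lists to give RPM, and 56.6% to 61.0% of those reads were on genes. RPKM used the longest protein-coding transcript of GENCODE vM1. Symbols were matched for 12690 of 12700 IDs and GC content and length for 12251. Every gene was compared between libraries by a Poisson likelihood ratio test (threshold 0.05) together with a minimum log2 ratio of 0.7 in either direction, a count of 0 being set to 1 for the ratio. No p-values are printed because there are no replicates. Levels carry 95% exact Clopper-Pearson intervals.

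The genes named are the 8 members, Ids, genes of the lists that were called or counted, the 3 genes of nearest profile to each member and subunit genes within 1 Mb of a member. Members and lists were chosen with earlier results of these data known. Listed genes that were not analysed here entered no list count. Alternatives were column totals, edgeR TMM factors, DESeq2 size factors, a log2 threshold of 1, at least 100 reads in either library, Benjamini-Hochberg adjustment, an edgeR exact test with an assumed coefficient of variation of 0.2, 0.5 added to counts, and a correction for GC content and length. The correction for GC content and length and the added 0.5 changed the ratio only, and the test stayed that of the counts as deposited. The steps were tested on simulated data. Tools were R 4.3.3 with DESeq2 1.42.0 and edgeR 4.0.16, and matplotlib 3.10.9, scipy 1.17.1, pandas 2.3.3 and numpy 2.4.6 under Python 3.11.15.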

Additional observations from a re-analysis of the deposited data

Results flagged for a closer look

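Gabra2 and Ids had log2 ratios of opposite sign in the Cx and M pairs. Gabra2 was at -0.25 in CxH over CxWT and 0.21 in MH over MWT, and Ids at -1.39 and 1.24. With 1 library per label, the difference between the pairs was not tested. The sign of the Cx ratio of Gabra2 did not hold under the correction for GC content and length.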

How the results depend on the processing

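The number of the 8 genes called in each of the 6 pairs stayed within 1.5 times its value under every alternative that was run. A minimum of 100 reads left out Gabre in M and in CxH over MWT, and a log2 threshold of 1 lost Gabrd in MH over CxWT (0.85), so that 3 genes were called there. The correction for GC content and length changed the sign of Gabra2 (to 0.14) and Gabra4 (to 0.045) in CxH over CxWT, Gabra3 (0.065) in MH over MWT, Gabra4 (0.18) in CxH over MH, Gabra2 (0.28) and Gabra5 (0.015) in CxWT over MWT, and Gabra2 (0.41), Gabra4 (0.032) and Gabra5 (0.24) in CxH over MWT. Column totals turned Gabra3 in CxWT over MWT to -0.0089, and TMM and DESeq2 factors turned Gabra5 in CxH over MWT to 0.012 and 0.0054. None of these ratios was called, and 414 of the other ratios of single genes under an alternative kept their direction and side of the threshold. Among the 7 other subunit genes, the correction gave 1 call instead of 0 in CxWT over MWT. Relative to the main scaling, the median of all genes moved by -0.11 in CxH over MWT with column totals and by 0.11 in MH over CxWT with TMM or DESeq2 factors. Depth limits Gabre, Gabrq and Glra1, which had 6 to 20 reads in CxH and MH. Over all genes, calls fell under the GC and length correction from 3895 to 1896 in CxH over MWT, from 958 to 361 in CxWT over MWT and from 444 to 295 in CxH over MH, and at a log2 threshold of 1 to between 143 and 1961 in the 6 pairs. The directions also shifted with the scaling in the other pairs, from 1980 higher and 1915 lower to 1609 and 2504 with column totals in CxH over MWT, and with TMM from 814 and 1129 to 1013 and 855 in MH over CxWT; with column totals they shifted from 690 and 268 to 480 and 390 in CxWT over MWT and from 309 and 135 to 257 and 183 in CxH over MH. No paired analysis was possible because each group holds 1 library with no replicate number. A fit of the genotype and area labels without interaction, over 4 libraries, was not run because Ids and the markers went against those labels.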
